A study of Mus musculus with 8 samples.

Results

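DNA replication genes were described in the epithelium of mouse back skin at E15.5, an embryonic stage counted in days, in 4 Foxi3 null embryos (Foxi3-/-) and 4 wild-type embryos (Foxi3+/+), with 1 array each. The set was chosen by symbol as 42 genes of origin licensing, the replication fork and nucleotide synthesis, and 41 of them were measured among the 26165 genes of the table. Cdt1 was not analysed here, and each of the other symbols had 1 probe summary. Null embryos carried a total null allele of Foxi3, were recognised by their missing jaw and then genotyped. The embryos, littermates of C57/Bl6 background, came from 4 litters, and the labels do not tie an embryo to a litter. Foxi3 encodes a forkhead transcription factor of embryonic ectoderm and its appendages. The epithelium was freed from dermis with dispase and was not sorted, so each array averages over interfollicular epidermis and developing hair follicles. In such bulk samples fewer cells of a type and less RNA per cell cannot be told apart.

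Replication starts where the origin recognition complex, with Cdc6 and Cdt1, loads the ring-shaped Mcm helicase onto DNA in G1, a step called licensing. In S phase Cdc45 and the GINS complex join the loaded Mcm ring to form the active helicase, after which primase and the polymerases copy the strands behind a sliding clamp. Many of these genes are targets of E2F transcription factors, so that their transcripts rise in dividing cells. In embryonic skin the dividing cells lie mainly in the basal layer and in growing follicle epithelium, and cells of the fully differentiated outer layers no longer divide.

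Values are log2 intensities, and a difference of 1 on this scale is a 2-fold change. Sample medians lay between 5.15 and 5.29, and arrays give no read depth, so that their number limits the precision. The basal keratin genes Krt5 and Krt14 averaged 12.04 and 11.58 in Foxi3 null and 12.05 and 11.64 in wild-type epithelium, high values for markers that define the labelled tissue. Foxi3 itself averaged 8.42 ± 0.18 in Foxi3 null and 8.95 ± 0.28 in wild-type epithelium (SD, n = 4 each, limma adjusted p = 1.00). Since the sources used here do not place its probes relative to the deleted part, this level does not check the genotype. Foxi3 null 2 stood apart by its dermal fibroblast genes, and the samples numbered 4 by their dissociation stress genes. Y-linked genes were high in Foxi3 null 3, wild type 3 and wild type 4, so the sexes were not balanced.

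No DNA replication gene passed the test of Foxi3 null against wild type. Of 41 measured genes, 0 were called higher and 0 lower by limma at an adjusted p under 0.05 over all genes (lowest adjusted p 1.00), where 0.00382% of all genes were called higher and 0.00764% lower. At an unadjusted p under 0.05 the counts were also 0 higher and 0 lower, against 1.69% and 2.03% of all genes. The fitted differences nevertheless lay close together on one side, with 40 of 41 above 0, where 46.0% of all genes were above 0. Their median was 0.12 on the log2 scale with quartiles of 0.08 and 0.15, beside a median of −0.01 with quartiles of −0.07 and 0.06 over all genes. Differences ran from −0.13 for Pcna to 0.33 for Pole, 26 were at least 0.1 and 4 were at least 0.2. These genes share regulation and are not independent, so a common sign across them is a description of these 8 samples. The set was also chosen with a higher cell cycle list in these data already known, so the common sign is no independent evidence.

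**Figure D1:**
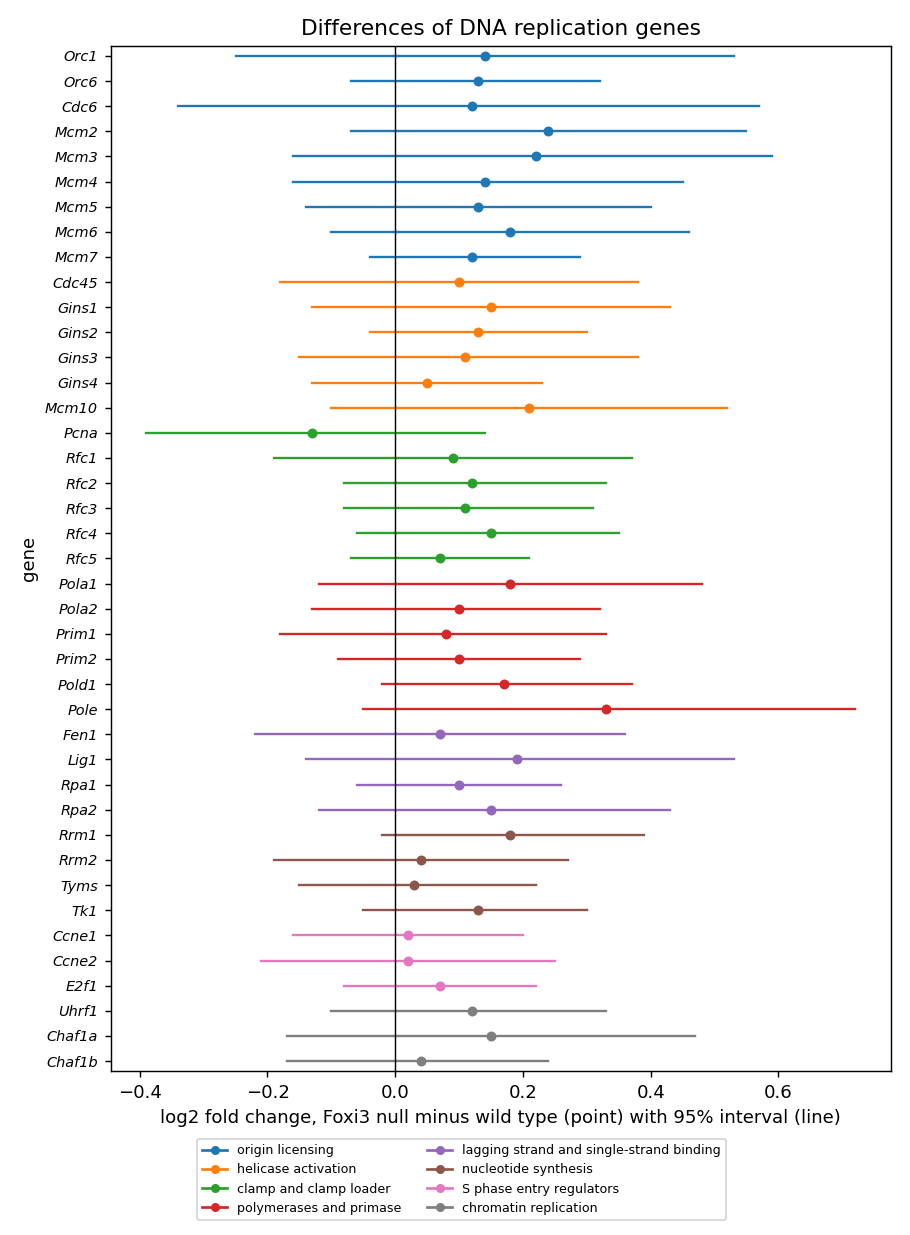
Fitted log2 fold changes, Foxi3 null minus wild type, of the 41 DNA replication genes, with 1 row per gene, colours for the 8 roles and lines for 95% intervals of the moderated fit. Apart from Pcna the points lie right of 0, and every interval includes 0.

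The 95% interval of each gene's difference included 0, and 0 of 41 lower bounds were above it. The highest upper bound was 0.72, for Pole, which is a 1.64-fold difference, and the lowest lower bound was −0.39, for Pcna. For the 40 genes other than Pcna, which was dim on these arrays, a 2-fold difference in intensity in either direction lay outside the interval. The median difference of the set lay within the interval of each gene. In 0 of 41 genes did all null samples lie above all wild-type samples, and in 0 below, against 0.871% and 1.07% of all genes.

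The genes varied together from embryo to embryo. Averaged over the 41 genes, the level was 7.90, 7.92, 8.0 and 7.79 in Foxi3 null 1 to 4, against 7.81, 7.71, 8.01 and 7.60 in wild type 1 to 4. Wild type 3 was thus as high as the highest null sample, and Foxi3 null 4 lay below wild type 1. By gene, 16 had their highest value in Foxi3 null 3 and 17 in wild type 3. The lowest value was in wild type 4 for 26 genes and in wild type 2 for 12. Within the wild-type group, wild type 3 was the highest sample for 40 of 41 genes and wild type 4 the lowest for 26. Among null samples, Foxi3 null 3 was highest for 25 genes and Foxi3 null 4 lowest for 26. Group means of this average were 7.90 ± 0.09 in Foxi3 null and 7.78 ± 0.17 in wild-type embryos (SD, n = 4 each). Their difference was smaller than the SD among wild-type embryos and larger than that among null embryos.

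**Figure D2:**
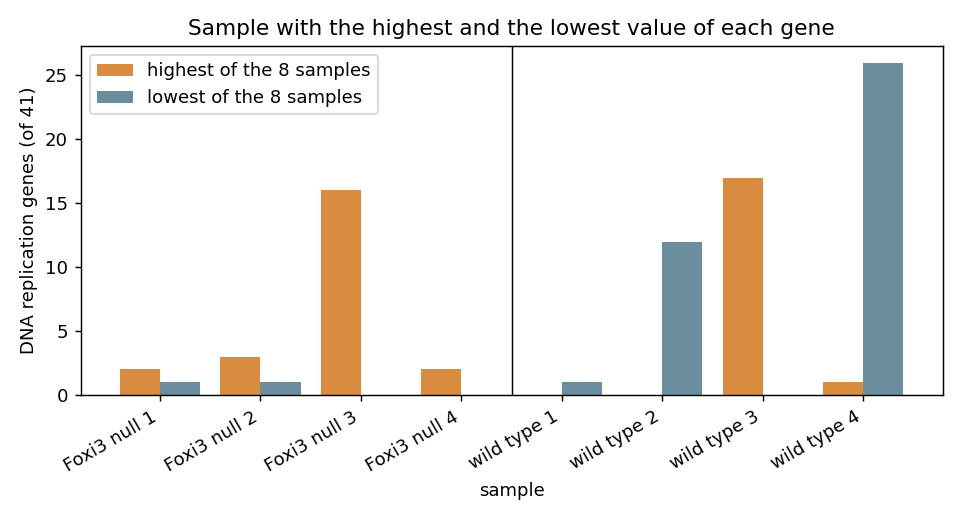
Number of the 41 DNA replication genes (vertical axis) whose highest value (orange) or lowest value (grey-blue) over the 8 samples fell in each sample (horizontal axis). Highest values gathered in Foxi3 null 3 (16) and wild type 3 (17), and lowest values in wild type 4 (26) and wild type 2 (12).

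The size of the common difference depended on single embryos of either group. Without Foxi3 null 3 the median difference was 0.08, with 38 of 41 genes above 0, and without Foxi3 null 4 it was 0.15, with 39 above 0. Without wild type 4 the median difference was 0.05, with 35 of 41 genes above 0. Without wild type 3 it was 0.19, with 40 above 0, and 14 genes then had an unadjusted p under 0.05 on the higher side, where 2.81% of all genes did, though none passed (limma lowest adjusted p = 0.674). With both samples numbered 4 left out the median was 0.09 with 36 of 41 above 0. With Foxi3 null 2 left out as well it was 0.10, again with 36 above 0. Among the 3 null and 2 wild-type samples with low Y-linked genes the median difference was 0.10 with 38 genes above 0, and between the 1 null and 2 wild-type samples with high Y-linked genes it was 0.18 with 37 above 0.

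**Figure D3:**
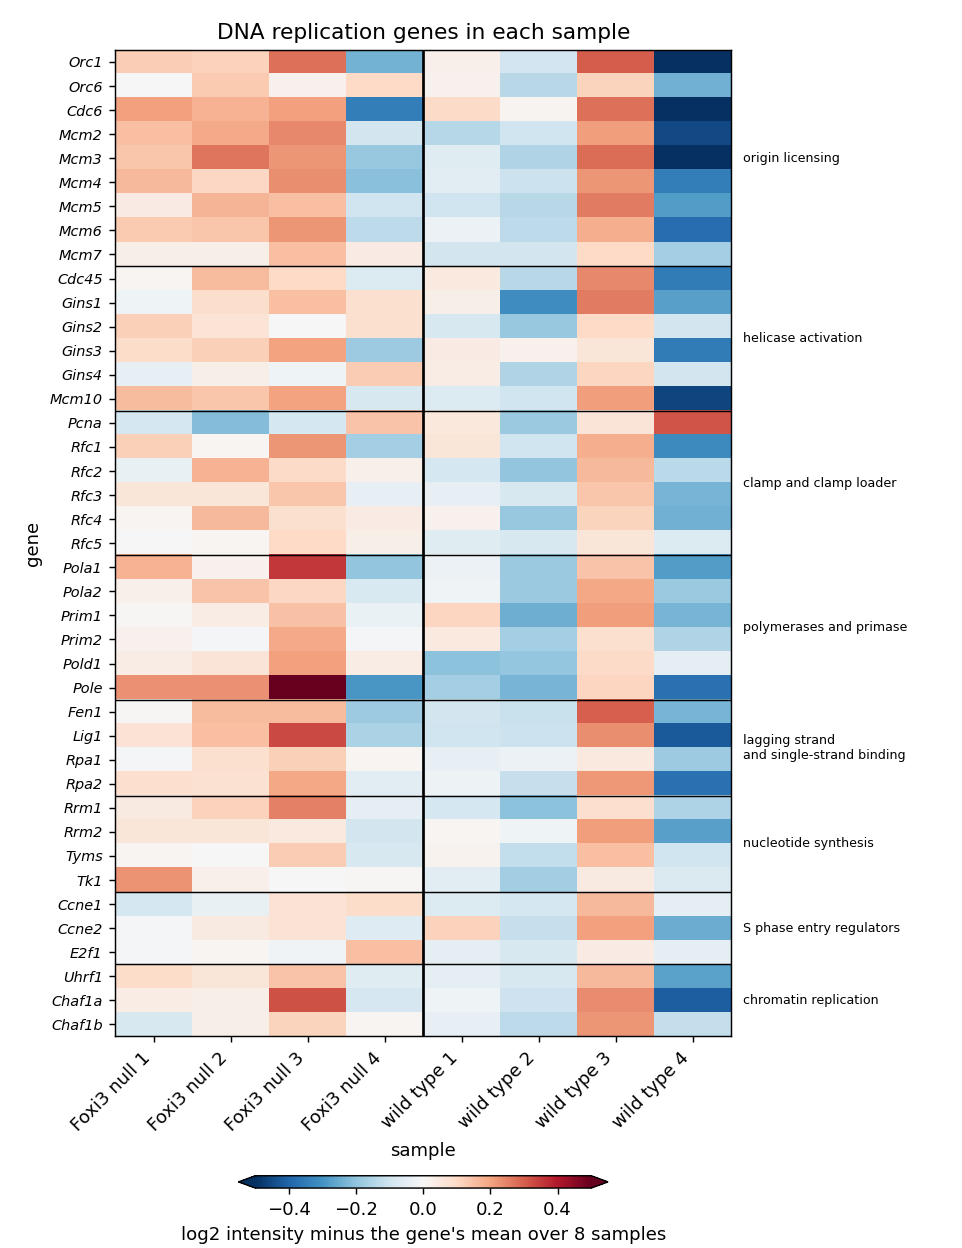
Heat map of the 41 DNA replication genes (rows, grouped by role) in the 4 Foxi3 null and 4 wild-type samples (columns), as log2 intensity minus the gene's mean over the 8 samples, with the colour scale ending at −0.5 and 0.5. Columns for Foxi3 null 3 and wild type 3 are mostly red and that for wild type 4 is mostly blue. Pcna runs the other way in Foxi3 null 3 and wild type 4.

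Origin licensing genes had a median difference of 0.14, with 9 of 9 above 0, and their mean level was 8.39 ± 0.14 in Foxi3 null epithelium, against 8.23 ± 0.25 in wild type (SD, n = 4 each). Mcm2 (ENSMUSG00000002870), a subunit of the Mcm helicase ring, had log2 intensities of 9.70, 9.74, 9.79 and 9.46 in Foxi3 null 1 to 4, against 9.41, 9.45, 9.76 and 9.10 in wild type 1 to 4. Wild type 3 lay within the null range, and the other wild-type samples lay below all null samples. The difference was 0.24 (SE 0.14, limma adjusted p = 1.00), and it was 0.13 without wild type 4.

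Mcm6 (ENSMUSG00000026355), of the same ring, had 9.14, 9.15, 9.23 and 8.88 in Foxi3 null 1 to 4, against 8.98, 8.88, 9.19 and 8.63 in wild type 1 to 4. The groups overlapped, since Foxi3 null 4 was below wild type 1 and 3, and the difference was 0.18 (SE 0.13). It was 0.08 without wild type 4 and 0.27 without wild type 3. For Mcm7 (ENSMUSG00000029730) the values were 7.23, 7.23, 7.35 and 7.24 in Foxi3 null 1 to 4, against 7.11, 7.11, 7.30 and 7.03 in wild type 1 to 4. All wild-type samples but wild type 3 were below the null samples, with a difference of 0.12 (SE 0.07). The remaining ring subunits Mcm3, Mcm4 and Mcm5 were at 0.22 (SE 0.17), 0.14 (SE 0.13) and 0.13 (SE 0.12).

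Orc6 (ENSMUSG00000031697), a small subunit of the origin recognition complex, had 8.50, 8.63, 8.52 and 8.60 in Foxi3 null 1 to 4, against 8.52, 8.36, 8.61 and 8.26 in wild type 1 to 4. Its wild-type samples spread over a wider range than its null samples and covered most of them (difference 0.13, SE 0.09, and 0.07 without wild type 4). Orc1, the largest subunit, was at 0.14 (SE 0.17), and Cdc6, the loading factor, at 0.12 (SE 0.20). Cdc6 was low in both samples numbered 4, at 6.26 in Foxi3 null 4, against 6.78 or more in the other null samples, and at 5.99 in wild type 4, against 6.62 or more in the other wild-type samples.

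Genes of helicase activation had a median difference of 0.12, with 6 of 6 above 0. Gins2 (ENSMUSG00000031821), a GINS subunit, had 7.51, 7.46, 7.39 and 7.47 in Foxi3 null 1 to 4, against 7.31, 7.20, 7.49 and 7.30 in wild type 1 to 4. Only wild type 3 entered the null range, and the difference was 0.13 (SE 0.07). Mcm10 (ENSMUSG00000026669), a fork factor that helps to activate the helicase, had 7.11, 7.09, 7.15 and 6.87 in Foxi3 null 1 to 4, against 6.88, 6.85, 7.16 and 6.49 in wild type 1 to 4. Its highest sample was a wild type and its difference was 0.21 (SE 0.14), against 0.09 without wild type 4 and 0.32 without wild type 3. The GINS genes Gins1, Gins3 and Gins4 were at 0.15, 0.11 and 0.05, and Cdc45 at 0.10.

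Genes of the clamp and its loader were at a median of 0.10, with 5 of 6 above 0. Rfc4 (ENSMUSG00000022881), a subunit of the clamp loader replication factor C, had 8.82, 8.97, 8.89 and 8.85 in Foxi3 null 1 to 4, against 8.83, 8.62, 8.92 and 8.57 in wild type 1 to 4. The null range took in wild type 1 and 3 (difference 0.15, SE 0.09, and 0.09 without wild type 4). The other loader genes Rfc1, Rfc2, Rfc3 and Rfc5 were between 0.07 and 0.12.

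Pcna (ENSMUSG00000027342), the sliding clamp, was the 1 gene of the set on the lower side. It had 4.2, 4.07, 4.2 and 4.43 in Foxi3 null 1 to 4, against 4.34, 4.10, 4.35 and 4.60 in wild type 1 to 4. Its highest value was in wild type 4, in which most of the set was lowest, and the difference was −0.13 (SE 0.12, limma adjusted p = 1.00). With 1 sample left out it ranged to −0.04 without wild type 4 and to −0.21 without wild type 2, and it was −0.07 without Foxi3 null 2. Pcna was also the 1 gene of the set below the median of all genes, 5.22. No background level was computed here, so how far its signal lies above background was not tested. Processed copies of the gene, Pcna-ps1 and Pcna-ps2, are annotated in the mouse, and the sources used here do not say how the array's probes treat them.

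Polymerase and primase genes held the largest difference of the set and had a median of 0.14, with 6 of 6 above 0. Pole (ENSMUSG00000007080), the catalytic subunit of the leading-strand polymerase epsilon, had 8.28, 8.28, 8.55 and 7.76 in Foxi3 null 1 to 4, against 7.88, 7.82, 8.16 and 7.68 in wild type 1 to 4. Foxi3 null 1, 2 and 3 lay above all wild-type samples, whereas Foxi3 null 4 lay below all but wild type 4. The difference was 0.33 (SE 0.17, limma adjusted p = 1.00), and it was 0.22 without Foxi3 null 3 (limma adjusted p = 1.00), 0.27 without wild type 4 and 0.49 without Foxi3 null 4 (limma adjusted p = 0.593).

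Pold1 (ENSMUSG00000038644), the catalytic subunit of the lagging-strand polymerase delta, had the lowest unadjusted limma p of the set, 0.0686. Its values were 7.84, 7.87, 8.01 and 7.84 in Foxi3 null 1 to 4, against 7.60, 7.61, 7.90 and 7.76 in wild type 1 to 4. Wild type 3 was again the wild-type sample within the null range, and the difference was 0.17 (SE 0.08). Pola1 and Pola2, subunits of the priming polymerase alpha, were at 0.18 (SE 0.13) and 0.10 (SE 0.10). The primase genes Prim1 and Prim2 were at 0.08 (SE 0.11) and 0.10 (SE 0.08).

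Genes of lagging-strand processing and of replication protein A, which coats unwound DNA, had a median of 0.13, with 4 of 4 above 0. Rpa1 (ENSMUSG00000000751), the large subunit of that protein, had 8.24, 8.33, 8.37 and 8.26 in Foxi3 null 1 to 4, against 8.21, 8.22, 8.30 and 8.07 in wild type 1 to 4. Its samples lay close together in both groups (difference 0.10, SE 0.07, and 0.05 without wild type 4). The DNA ligase gene Lig1 was at 0.19 (SE 0.15), Rpa2 at 0.15 (SE 0.12) and the flap nuclease gene Fen1 at 0.07 (SE 0.13).

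Nucleotide synthesis genes had a median of 0.08, with 4 of 4 above 0. Rrm1 (ENSMUSG00000030978), the large subunit of ribonucleotide reductase, had 10.52, 10.59, 10.73 and 10.43 in Foxi3 null 1 to 4, against 10.39, 10.27, 10.56 and 10.32 in wild type 1 to 4. Its difference was 0.18 (SE 0.09), with wild type 3 alone inside the null range. Rrm2 (ENSMUSG00000020649), the small subunit of the same enzyme, had 8.58, 8.58, 8.57 and 8.43 in Foxi3 null 1 to 4, against 8.53, 8.50, 8.73 and 8.25 in wild type 1 to 4.

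The groups overlapped for Rrm2 and the difference was 0.04 (SE 0.10). Its sign turned without wild type 4, to −0.05. Tk1 (ENSMUSG00000025574), the thymidine salvage kinase, had 5.84, 5.64, 5.61 and 5.62 in Foxi3 null 1 to 4, against 5.56, 5.44, 5.66 and 5.54 in wild type 1 to 4. Foxi3 null 1 stood above its group, and the difference was 0.13 (SE 0.08), against 0.07 without that sample. Tyms, the thymidylate synthase gene, was at 0.03 (SE 0.08).

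Regulators of S phase entry lay nearest to 0, with a median of 0.02 over 3 genes. E2f1 (ENSMUSG00000027490), an activator of replication genes, had 7.23, 7.25, 7.22 and 7.39 in Foxi3 null 1 to 4, against 7.19, 7.16, 7.28 and 7.19 in wild type 1 to 4. Unlike most of the set it was highest in Foxi3 null 4, and its difference was 0.07 (SE 0.07), against 0.03 without that sample. The cyclin E genes Ccne1 and Ccne2, whose products drive entry into S phase, were both at 0.02 (SE 0.08 and 0.10). Whether this role differs from the other roles was not tested.

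Genes of chromatin replication had a median of 0.12 over 3 genes. Uhrf1, which recruits the maintenance DNA methyltransferase to replicated DNA, was at 0.12 (SE 0.09). Chaf1a and Chaf1b, subunits of the chromatin assembly factor that deposits histones behind the fork, were at 0.15 (SE 0.14) and 0.04 (SE 0.09).

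Promoters of the set were searched for motifs known from replication genes. Whether a motif goes with the shared variation across embryos was not tested. Windows of 300 bases, 250 before and 50 after an annotated start, were available from RefSeq (GRCm38.p6) for 33 of the 41 genes. The E2F core was spelled TTNNCGC, in which each N is a G or a C, and was searched on either strand, and 21 of 33 genes (63.6%) held it in some window, against 10.9% of 27025 genes with a window. CCAAT, on either strand, was held by 21 genes (63.6%), against 41.1% of all, and 15 genes held both. Windows of the set had a median G and C content of 60.7%, against 52.7% over all windows, which was not adjusted for. The median difference was 0.13 for genes with an E2F core and 0.10 for the 12 without it. A match is a string of letters and no measured binding site.

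The windows of Pold1 (chr7:44548766-44549065, minus strand), Rrm1 (chr7:102441445-102441744, plus strand), Mcm7 (chr5:138171834-138172133, minus strand) and Rfc4 (chr16:23127681-23127980, minus strand) are shown because these genes had the lowest unadjusted p among those with an E2F core. They are given 5′ to 3′ on the gene's strand, with E2F cores in capitals, and for Mcm7 the window of a further annotated start is not shown.
Pold1: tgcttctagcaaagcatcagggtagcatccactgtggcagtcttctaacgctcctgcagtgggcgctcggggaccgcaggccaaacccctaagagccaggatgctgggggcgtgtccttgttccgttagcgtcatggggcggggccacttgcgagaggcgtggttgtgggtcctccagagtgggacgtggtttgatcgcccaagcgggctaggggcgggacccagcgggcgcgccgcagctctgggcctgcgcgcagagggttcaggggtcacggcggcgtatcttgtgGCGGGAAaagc
Rrm1: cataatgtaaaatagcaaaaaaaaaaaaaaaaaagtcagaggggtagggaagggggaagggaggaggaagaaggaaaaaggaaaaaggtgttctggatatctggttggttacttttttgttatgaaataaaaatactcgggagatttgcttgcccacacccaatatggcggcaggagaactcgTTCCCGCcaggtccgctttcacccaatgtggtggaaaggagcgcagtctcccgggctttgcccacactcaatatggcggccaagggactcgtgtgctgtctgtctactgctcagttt
Mcm7: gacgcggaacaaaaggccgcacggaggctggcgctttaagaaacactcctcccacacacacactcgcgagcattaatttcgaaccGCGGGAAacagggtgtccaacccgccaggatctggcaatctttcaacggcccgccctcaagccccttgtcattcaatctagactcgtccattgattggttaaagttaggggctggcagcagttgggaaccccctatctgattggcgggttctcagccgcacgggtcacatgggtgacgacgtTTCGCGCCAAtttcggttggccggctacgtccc
Rfc4: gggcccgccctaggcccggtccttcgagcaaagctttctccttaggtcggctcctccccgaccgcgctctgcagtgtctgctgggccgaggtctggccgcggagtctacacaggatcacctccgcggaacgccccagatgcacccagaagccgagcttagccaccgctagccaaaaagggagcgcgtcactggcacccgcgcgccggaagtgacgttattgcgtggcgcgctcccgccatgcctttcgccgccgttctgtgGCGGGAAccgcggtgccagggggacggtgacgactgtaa
Counted from 0 at the start, the core began 39 bases after the start in Pold1 and 11 bases after it in Rfc4, and its position relative to the start was −67 in Rrm1. Mcm7 held 3 cores, at −165, 17 and 20, of which the last overlap each other, and the one at 20 overlaps a CCAAT match. In the Mcm7 window only 22 bases lie before an annotated start of the gene, against 250 in the other windows shown. The Mcm7 positions are counted from a later start, so its core at −165 lies downstream of the earlier one.

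Other replication genes, outside the set, gave no call either. Of 58 measured genes 0 passed in either direction, 48 were above 0, against 46.0% of all genes, and the median was 0.06. At an unadjusted p under 0.05 on the higher side stood 1 of 58, near the 1.69% of all genes. It was Cad, whose product starts pyrimidine synthesis. Its difference was 0.30 (SE 0.10, unadjusted p = 0.0155 and adjusted p = 1.00 by limma), and Foxi3 null 4 lay within the wild-type range.

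Among 11 further origin and firing genes 9 were above 0, from Cdc7, the kinase that fires origins, at 0.17 (SE 0.08) and Orc3 at 0.13 (SE 0.08) to Orc2 at −0.02 and Orc4 at −0.06. Of 18 fork and polymerase genes 16 were above 0. Pole4, an accessory subunit of polymerase epsilon, was at 0.12 (SE 0.07) and was narrowly higher in each null sample (7.04 to 7.05) than in any wild-type sample (6.83 to 7.01). Dscc1, of an alternative clamp loader, was at 0.11, Pole3 at −0.05 and Rnaseh2a at −0.04. Of 10 nucleotide synthesis genes, Cad included, 9 were above 0. The folate enzyme gene Mthfd1 was at 0.17 and the deoxycytidine kinase gene Dck at −0.07.

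Genes of E2F and S phase control did not share a sign, with 7 of 12 above 0 and a median of 0.03. Skp2, of a ubiquitin ligase that removes a Cdk inhibitor, was at 0.19 and Ccna2, the S phase cyclin, at 0.05. Rb1, the restraint on E2F factors, was at −0.11 and E2f2 at −0.08. Of 7 further chromatin replication genes 7 were above 0, among them the maintenance methyltransferase gene Dnmt1 at 0.14 and the histone chaperone gene Nasp at 0.10. Ticrr, on the same lists, was not analysed here.

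Mitosis and spindle genes, active later in the cycle, also lay on the higher side without a call, with 24 of 24 above 0, a median of 0.14 and 0 called. Ccnb1, a mitotic cyclin gene dim on these arrays, was at 0.22 (SE 0.09), the kinetochore gene Cenpf at 0.32 (SE 0.17) and the proliferation marker Mki67 at 0.23 (SE 0.12). The mean of this list was 8.68, 8.65, 8.89 and 8.56 in Foxi3 null 1 to 4, against 8.60, 8.45, 8.78 and 8.36 in wild type 1 to 4. Wild type 3 exceeded all null samples but Foxi3 null 3. The replication and mitosis lists were not tested against each other, and both were chosen with a higher cell cycle list in these data already known.

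Markers of differentiation, dermis and handling also differed between samples. Of 12 suprabasal and cornified genes 11 were below 0, and their mean was 9.90, 10.06, 9.62 and 10.15 in Foxi3 null 1 to 4, against 10.28, 10.22, 9.83 and 10.37 in wild type 1 to 4. Foxi3 null 3 and wild type 3, highest for replication genes, were thus the lowest of their groups for these markers. Foxi3 null 4 and wild type 4 were the highest of their groups. Differences of single suprabasal and cornified genes ran from −1.19 to 0.17. At an unadjusted limma p under 0.05, 1 of the 12 was lower, against 2.03% of all genes, and none was called. Of 11 dissociation stress genes 11 were below 0, with a mean of 7.25, 7.25, 7.53 and 8.76 in Foxi3 null 1 to 4, against 7.70, 7.32, 7.60 and 9.72 in wild type 1 to 4. The part of these markers in the replication differences was not tested beyond the values given above without the samples numbered 4.

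Of 10 dermal fibroblast genes 10 were above 0, with a mean of 8.44 in Foxi3 null 2, while the other null samples had 6.07 to 6.57 and wild-type samples 6.22 to 6.70. Without Foxi3 null 2 the median difference of the replication set was 0.11, with 40 of 41 above 0. Of 7 basal epidermis genes 2 were above 0, and their mean ranged from 10.25 to 10.29 in Foxi3 null and from 10.29 to 10.35 in wild-type samples. Skeletal muscle markers were below 0 in 6 of 6, with means of 4.97 to 5.26 in Foxi3 null and 5.05 to 5.64 in wild-type samples. Of these markers 3 were lower at an unadjusted limma p under 0.05, against 2.03% of all genes, and none was called. Sample means of the muscle and fibroblast lists overlapped between the groups, and so did those of the lists that follow. Hair placode and germ genes averaged 7.43 to 7.55 in Foxi3 null and 7.43 to 7.52 in wild-type samples. Differences of single genes on that list ran from −0.68 to 0.92, so its mean hides opposite differences. At an unadjusted limma p under 0.05, 1 of its 8 genes was higher and 2 were lower, against 1.69% and 2.03% of all genes, and none was called. Dermal condensate genes averaged 4.71 to 5.54 in Foxi3 null and 4.51 to 4.82 in wild-type samples. Of the 5 measured, 5 were above 0, with a median of 0.35, and Sox2 of that list was not analysed here. At an unadjusted limma p under 0.05, 1 of the 5 was higher, against 1.69% of all genes, and none was called. Melanoblast genes averaged 6.65 to 7.05 in Foxi3 null and 6.70 to 7.05 in wild-type samples, and endothelial genes 3.66 to 4.14 in Foxi3 null and 3.72 to 3.87 in wild-type samples. Leukocyte genes averaged 4.30 to 4.46 in Foxi3 null and 4.34 to 4.56 in wild-type samples, and erythroid genes 3.91 to 4.25 in Foxi3 null and 3.84 to 4.04 in wild-type samples. Their part in the replication differences was not tested.

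**Figure D4:**
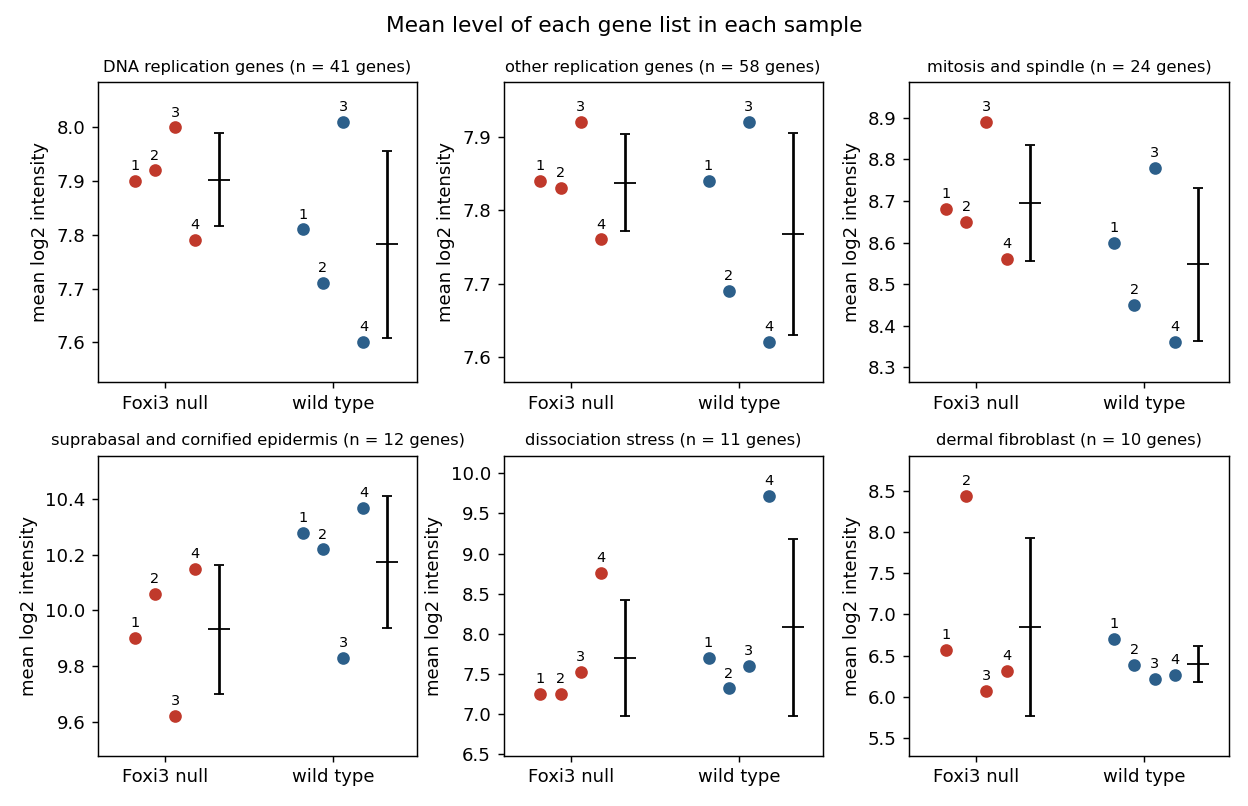
Mean log2 intensity (vertical axes, each with its own range) of 6 gene lists in the Foxi3 null (red) and wild-type (blue) samples, numbered as in the labels, with bars for the group mean ± SD (n = 4 each). The replication and mitosis panels share their order of wild-type samples, 3 highest and 4 lowest, and the suprabasal panel has 3 lowest and 4 highest in both groups.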

How the data were processed

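Expression was measured on 8 arrays of 1 embryo each. The deposited values are log2 intensities per Ensembl gene, which the authors obtained with RMA per the submitters' processing notes. The sources used here do not give the version, probe annotation, build or filters, and RMA compresses differences of dim genes. Sample columns were matched by accession, and the authors' deposited group means differed from means of these values by at most 7.5e-09 on the log2 scale. A further 8 array columns matched no sample name and were not used. Groups and numbers came from the titles.

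All 26165 genes were fitted in R 4.3.3 with limma 3.58.1 (lmFit, then eBayes) without covariate, two-sided, with Benjamini-Hochberg adjustment over all genes and a threshold of 0.05. For a symbol with several summaries the one of highest mean was kept. The fit was tested on simulated data with independent noise for each gene and changes much larger than those of the replication genes. That test does not cover small differences in genes that vary together. P-values measure the spread between single embryos, whose litters are unknown.

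The members, lists and tests were chosen with earlier results of these data known, among them a higher cell cycle list. Values in every sample are given for the 12 genes of lowest unadjusted p and for Mcm2, Pcna, Rrm2 and E2f1. Outside the set up to 2 genes per list and direction are named, and 3 of the mitosis list. The alternatives tried were median centring, quantile normalisation, only genes above the median intensity, 1 row per symbol, array weights, a trend with robust moderation, no moderation, a sex covariate, a replicate block, an adjusted p under 0.1 and leaving out samples.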

Additional observations from a re-analysis of the deposited data

Results flagged for a closer look

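For each group of 4 samples, the distance of an extreme sample from its neighbour was divided by the group's full range, and samples with a share above the 95% critical value of Dixon's test are named with that share. This was so for 15 of 138 groups of values tested, where chance alone gives about 1 in 20, or 6.9. Foxi3 null 4 stood low for Cdc6 (0.931) and Rrm2 (0.906) and high for E2f1 (0.841). Foxi3 null 3 stood high for Mcm7 (0.916), Prim2 (0.876), Pold1 (0.858) and the mean of Y-linked genes (0.981). Wild type 3 stood high for Rfc5 (0.858) and Ccne1 (0.831). Wild type 4 stood low for Gins3 (0.90) and high for the means of dissociation stress (0.842) and basal epidermis genes (0.865). Foxi3 null 1 stood high for Tk1 (0.90), and Foxi3 null 2 for the means of dermal condensate (0.88) and skeletal muscle genes (0.849).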

How the results depend on the processing

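No DNA replication, other replication or mitosis gene was called under any of the 19 other fits or at an adjusted p under 0.1. The median difference of the set stayed above 0 in all of them, from 0.05 to 0.19 when a sample was left out, and from 35 to 40 genes were then above 0. The count at an unadjusted p under 0.05 on the higher side, 0 with all samples, was the value that moved. It ranged from 0 to 14 with a sample left out, the 14 being without wild type 3, and was 2 without Foxi3 null 4 (3.04% of all genes). It was 2 with array weights (2.63% of all genes), 3 with the sex covariate (2.10%), 1 without both samples numbered 4 (2.35%), and 1 with Foxi3 null 2 left out as well (2.61%), a setting chosen after seeing the data. Either count of 1 is near its share of all genes. The cause was not tested. On the lower side it was 0 throughout. Of the 15 genes given in every sample, the sign turned for Rrm2, which ranged from −0.05 to 0.11 with a sample left out, to −0.05 without wild type 4, to −0.01 without both samples numbered 4, and to −0.01 without Foxi3 null 2 too. With the replicate number as a block, 8 genes had an unadjusted p under 0.05 on the higher side, against 3.45% of all genes, and none passed (limma lowest adjusted p = 0.315). Deviations of same-numbered samples from their group means correlated across genes at 0.13, −0.043, 0.49 and 0.358 for numbers 1 to 4. The values for numbers 3 and 4 were the highest of all 16 combinations (the next was 0.261). Number 2 showed no such correlation, and wild type 1 correlated more with Foxi3 null 2 (0.162) than with Foxi3 null 1 (0.13). No label ties a number to a litter, so the block was kept as an alternative. The value table of the series already served as the main source, so no separate fit of it was made as had been planned. The 4 embryos per group limit the precision.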

Other observations

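Replication genes differed more among wild-type than among null embryos. The SD was larger in wild type for 36 of 41 genes, against 48.4% of all genes, with a median SD of 0.10 in Foxi3 null and 0.20 in wild-type samples. Over all genes the median SD was 0.13 in both groups. The range over the 8 samples had a median of 0.46 over the set and reached 0.89, beside a median difference of 0.12 between the groups. These genes vary together, with wild type 3 highest of its group for 40 of 41 and wild type 4 lowest for 26. The 36 genes are thus not independent cases. The SD of sample means was also larger in wild type for other replication genes (0.14, against 0.06 in Foxi3 null). For mitosis and spindle genes it was 0.18, against 0.14, so the wider spread was not particular to this set. The difference in spread was not tested.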
